A study of Mus musculus with 2 samples.

Results

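Mir26b is 1 of the 2202 miRNA genes counted in this series, found by matching the Ensembl identifiers of the deposited tables to GENCODE M21 gene names, where a single row (ENSMUSG00000065468.1) carries that name. The tissue was adrenal gland from female mice aged 4 days of the strain B6CASTF1/J, first-generation hybrids of C57BL/6J and CAST/EiJ. The series has 1 group of 2 libraries, biological replicates 1 and 2, with no treatment, no second genotype and no control group. The females are numbered separately in the labels while the donor identifier is shared, so p-values below compare these 2 libraries, whose spread may be partly technical. Small RNA was sequenced, and each value is a count of reads, or CPM (the usual depth-scaled count, here over the reads assigned to miRNA genes). The miRNA genes took 4960537 reads in replicate 1 and 4506482 in replicate 2.

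MicroRNAs are cut from hairpin precursors, and 1 or both arms of the hairpin are loaded into Argonaute proteins, where the seed (bases 2 to 8 of the mature RNA) pairs with sites in messenger RNAs and lowers their output. The miR-26 family is widely expressed and is known for restraining cell cycle and chromatin regulators such as Ezh2. Its genes lie in introns of the Ctdsp genes, which encode small phosphatases acting on the tail of RNA polymerase II and which silence neuronal genes in non-neuronal cells together with the repressor REST. The neonatal adrenal joins a steroid-producing cortex to a medulla of neural crest origin.

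The sequences of the family are shown because they set which reads can be counted for Mir26b. They are from RefSeq (GRCm38.p6), 5′ to 3′. In the hairpins the capitals mark the annotated mature arms.
Mir26b: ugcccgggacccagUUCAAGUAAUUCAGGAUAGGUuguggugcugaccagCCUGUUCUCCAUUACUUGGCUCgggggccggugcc
Mir26a-1: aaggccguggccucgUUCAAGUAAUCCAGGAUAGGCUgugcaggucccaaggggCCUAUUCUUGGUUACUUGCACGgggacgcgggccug
Mir26a-2: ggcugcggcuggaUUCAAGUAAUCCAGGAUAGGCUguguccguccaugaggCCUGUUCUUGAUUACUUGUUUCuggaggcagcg

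In the mature RNAs the capitals mark the seed.
miR-26b-5p: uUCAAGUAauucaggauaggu
miR-26a-5p, from both Mir26a-1 and Mir26a-2: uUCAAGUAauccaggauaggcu
miR-26b-3p: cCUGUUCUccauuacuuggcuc
miR-26a-2-3p: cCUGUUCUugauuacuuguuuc
miR-26a-1-3p: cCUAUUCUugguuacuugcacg

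The 5p arms share 1 seed. Counted from 1 at the 5′ end, with the base of miR-26b-5p first, miR-26b-5p and miR-26a-5p differ by U11C and U21C over the 21 bases compared, and miR-26a-5p is 1 base longer. Among 1738 mature entries of the RefSeq table, the seed of miR-26b-5p occurs in no entry other than those of these 3 genes. The 3p arms are less alike: miR-26b-3p shares its seed with miR-26a-2-3p, from which it differs at 4 of 22 bases, whereas the arm of Mir26a-1 has G4A within the seed and 8 differences in all.

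For the counts the hairpins as a whole matter, since reads that map to several places were given to no gene. The hairpins of Mir26a-1 and Mir26a-2 share a run of 25 bases that holds the whole 22-base miR-26a-5p. Mir26b has no such partner: its longest run in common with any of the other 2201 hairpins is 12 bases, under the 18 used here to mark a hairpin's count as uncertain. Only exact runs were compared. Whether reads of miR-26a-5p with a mismatch, such as at U11C, were counted for Mir26b was not tested. Whether CAST/EiJ alleles affected the count of any hairpin was not tested.

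Mir26b lies on chromosome 1 (74394310 to 74394394, plus strand, mm10), a hairpin of 85 bases. It sits in intron 4 of Ctdsp1 (chromosome 1, 74391509 to 74397285, plus strand), an intron of 564 bases between exons 4 and 5 of the 7 exons of transcript Ctdsp1-201, and overlaps no annotated exon. No gene is annotated on the opposite strand. Its 5p arm spans bases 74394324 to 74394344 and its 3p arm 74394360 to 74394381. The paralogues have the same kind of place. Mir26a-1 (chromosome 9, 119031796 to 119031885, plus strand) is in intron 5 of Ctdspl, and Mir26a-2 (chromosome 10, 126995530 to 126995613, plus strand) is in intron 5 of a Ctdsp2 transcript with 8 exons, though its last base is also the first of an exon in 2 other Ctdsp2 transcripts. The introns that hold them are longer, at 3283 and 1946 bases.

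**Figure D1:**
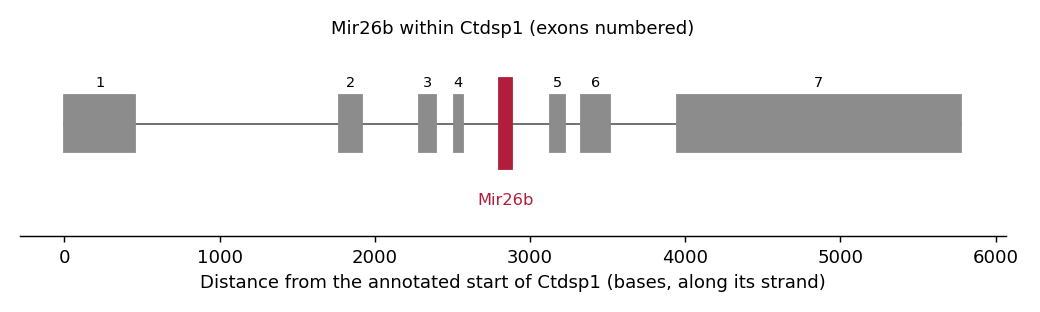
Map of Ctdsp1 along its strand, with the distance from its annotated start in bases on the x axis, exons of transcript Ctdsp1-201 as numbered grey boxes and the Mir26b hairpin in red. The hairpin starts 2801 bases from the start of Ctdsp1, between exons 4 and 5.

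Mir26b was among the most abundant miRNA genes of the neonatal adrenal gland. It took 114404 reads in replicate 1 and 128916 in replicate 2. These counts are 23063 CPM and 28607 CPM, a mean of 25835 ± 3920 CPM (SD, n = 2). Replicate 1 thus gave it 2.31% of its miRNA reads (Wilson 95% bounds 2.29 and 2.32). Replicate 2 gave it 2.86% (bounds 2.85 and 2.88). These bounds cover counting error only, since amplified reads lacking molecular identifiers need not each come from a separate molecule, and they are far narrower than the gap between the libraries. All reads of the gene were on its annotated strand. The opposite strand had 0 in both libraries, which allows at most 0.00262% and 0.00233% of the gene's own count. Reads were assigned to the hairpin, so the files do not tell how they divide between miR-26b-5p and miR-26b-3p.

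By mean CPM Mir26b ranked 11 of 2202 genes, at rank 9 in replicate 1 and rank 11 in replicate 2. Its mean was 172 times the median of 150 CPM over the 377 genes with at least 10 reads in both libraries, the set tested below. Levels of different genes are set side by side without dividing by hairpin length, since a mature miRNA is short enough to be covered by a single read, though small RNA libraries can capture some molecules better than others, which was not tested. Of the other genes, 8 were above Mir26b in both libraries and 2 in replicate 2 alone. This order is one of uniquely mapped reads. The 1135 genes whose hairpins share runs may be undercounted, so more of them could stand above Mir26b, and the median could be higher. Among hairpins with no shared run Mir26b ranked 7.

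The directly neighbouring levels did not separate from it. Mir143, a miRNA of smooth muscle and other mesenchymal cells, had 25848 and 35132 CPM in replicates 1 and 2. Mir23a, whose hairpin shares a run with another and so may be undercounted, had 22932 and 34168 CPM. Mir10b, of the Hox clusters, had 21414 and 35684 CPM. Below it in the order came Mir411, a miRNA of the imprinted Dlk1-Dio3 region, with 21725 and 27600 CPM and again a shared run. The ranges of these 4 genes overlapped that of Mir26b, and those of the other 2197 did not. Mir23a and Mir10b even changed sides, below Mir26b in replicate 1 and above it in replicate 2. The next in order stood apart, Mir335 (in an intron of the imprinted gene Mest) by a narrow margin, at 16932 and 23008 CPM, and Mir99a at 18236 and 21347 CPM.

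**Figure D2:**
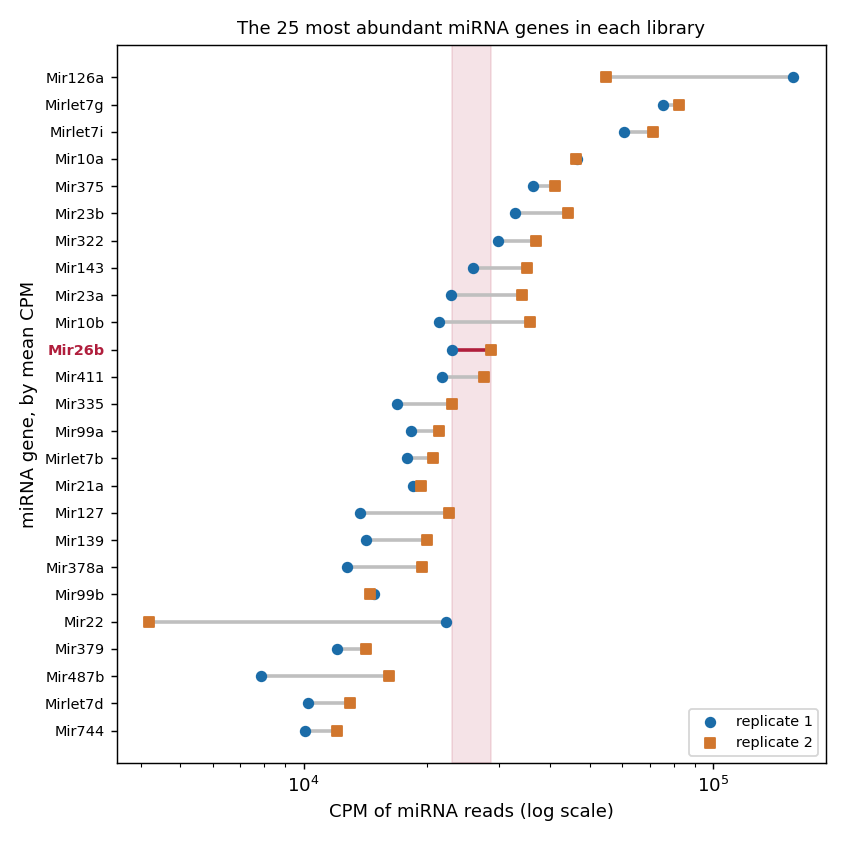
CPM (x axis, log scale) of the 25 miRNA genes with the highest mean (y axis), with replicate 1 as blue circles and replicate 2 as orange squares joined by a line. The shaded band is the range of Mir26b, 23063 to 28607 CPM, which meets the lines of Mir143, Mir23a, Mir10b and Mir411 and of no other gene.

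The genes most like Mir26b over the 2 libraries, by Euclidean distance of log2(CPM + 1), were Mir411 (0.10), Mir23a (0.26) and Mir10b (0.34). With 2 libraries this measure ranks mainly by level. Ratios of genes within a library need no scaling between libraries. Mir26b stood to Mir411 as 1.06 in replicate 1 and 1.04 in replicate 2, and to Mir322, a miRNA of an X-linked cluster (chosen after its values were seen), as 0.776 and 0.775. Set against each of the other 24 genes of the leading 25, the ratio of Mir26b to the gene was higher in replicate 2 for 12 and lower for 12, with a median change of 1.02-fold. It changed by at most 1.1-fold for 12 genes and by more than 1.5-fold for 3. Those 3 were Mir126a, an endothelial miRNA, at 0.147 and 0.523, Mir22 at 1.04 and 6.81, and Mir487b at 2.93 and 1.77 (Mir22 and Mir487b chosen after their values were seen). Mir26b thus kept its place among most of the abundant miRNAs.

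Between the libraries the count of Mir26b was higher in replicate 2 by more than counting error. After TMM scaling the fold was 1.36. The log2 ratio, with replicate 1 as the denominator throughout, was 0.44 (exact 95% bounds 0.43 and 0.45; exact two-sided binomial test, adjusted p 0 to machine precision). This call is common here. The same test called 68.2% of the 377 genes, with 35.5% higher in replicate 2 and 32.6% higher in replicate 1. Of the 92 genes with a mean of at least 1000 CPM, 90 were called. With TMM the fold of Mir26b was near the middle, with 190 genes changed by more in either direction and 186 by less. The number changed by more was 230 with total reads and 308 of 376 with Mir126a left out of the total, a choice made after seeing the data. Against the spread of the pair itself, edgeR's exact test gave Mir26b an unadjusted p of 0.628 and an adjusted p of 1. That test called 1.86% of the genes, or 7, and 24 had an unadjusted p under 0.05. It takes its dispersion from the same 2 libraries, so it compares a gene with the general spread of this pair.

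The size of the difference moved with the scaling. Scaling by total miRNA reads gave a log2 ratio of 0.31 and DESeq2 size factors gave 0.40. The total itself is weighted by Mir126a, which held 156832 CPM in replicate 1 and 54709 CPM in replicate 2. With Mir126a left out of the total, Mir26b had 27353 and 30262 CPM and a log2 ratio of 0.15 (95% exact interval 0.13 to 0.16), or 1.11-fold. These scalings shift all genes together. The median log2 ratio of the tested genes was 0.04 with TMM, -0.09 with total reads and -0.25 without Mir126a, and Mir26b lay 0.40 above the median in each. A scaling moves Mir26b and the median alike, so this gap depends on the genes tested. Among the 25 most abundant genes the median with TMM was 0.44, the value of Mir26b itself.

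**Figure D3:**
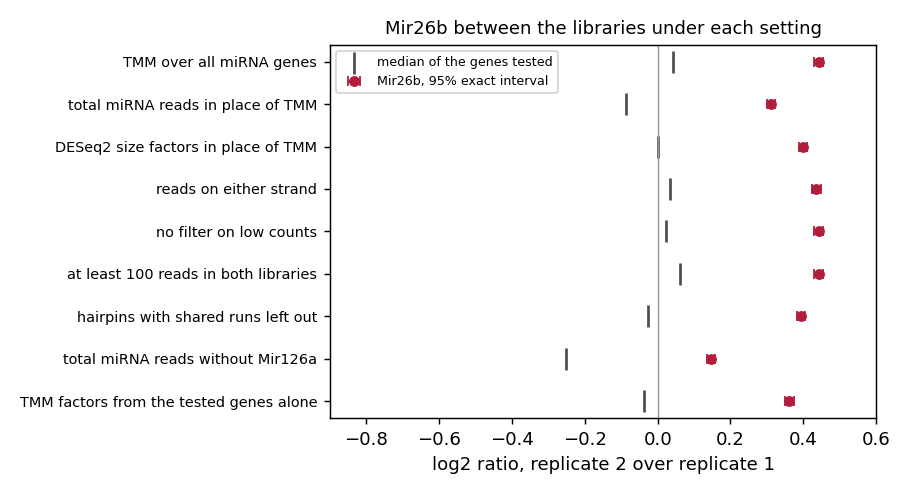
Log2 ratio (x axis, replicate 1 as denominator) of Mir26b under each setting (y axis), as red points with exact 95% bounds, beside the median of the genes tested as black ticks. Every point is above 0, from 0.15 without Mir126a in the total to 0.44 with TMM, and the point less the tick is between 0.38 and 0.42 in each.

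**Figure D4:**
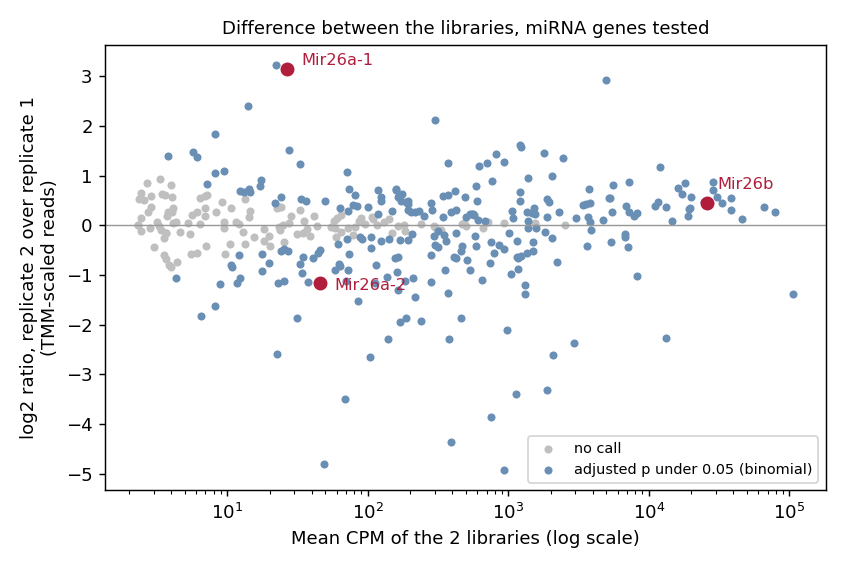
Log2 ratio of TMM-scaled reads (y axis) against mean CPM (x axis, log scale) for the 377 genes tested, with genes past the binomial test in blue, others in grey and the miR-26 genes in red. Mir26b lies at 0.44 among the abundant genes, Mir26a-1 at 3.15 and Mir26a-2 at -1.16 among low ones.

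The other family genes were counted at a tiny fraction of Mir26b and moved against each other. Mir26a-1 had 29 reads in replicate 1 and 214 in replicate 2. Mir26a-2 had 320 and 119. On TMM-scaled reads Mir26a-1 was 8.90-fold higher in replicate 2 (log2 ratio 3.15, 95% exact interval 2.59 to 3.77; exact binomial test, adjusted p 1.64e-43), and Mir26a-2 was 2.23-fold higher in replicate 1 (log2 ratio -1.16, -1.47 to -0.85; adjusted p 1.44e-14). Neither passed edgeR's exact test (adjusted p 0.0863 and 1). Both directions held under every scaling tried, but the scalings shift all genes together by far less than these ratios and could not reverse them. Summed, the pair had 349 reads in replicate 1 and 333 in replicate 2, or 70.4 and 73.9 CPM, and Mir26a-2 gave 91.7% of that sum in replicate 1 and 35.7% in replicate 2. The sum of the pair's uniquely mapped reads was thus nearly level while its make-up differed between the libraries. This sum leaves out reads that fit both hairpins, so it is not the pair's whole output.

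Of the family's uniquely mapped reads Mir26b held 99.70% in replicate 1 (Wilson 95% bounds 99.66 and 99.73) and 99.74% in replicate 2 (bounds 99.71 and 99.77), a mean of 99.7% ± 0.0329 (SD, n = 2). The share does not compare the mature miRNAs. A read of the shared miR-26a-5p fits both hairpins, and the libraries held 3029257 and 3134681 reads that mapped to several places and were not assigned. The level of miR-26a, and that of the seed shared by the family, therefore cannot be had from these counts. Of the family, only Mir26b has a count that is not marked as uncertain. Which part of the Mir26a hairpins gave the few unique reads is not recorded in the tables.

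**Figure D5:**
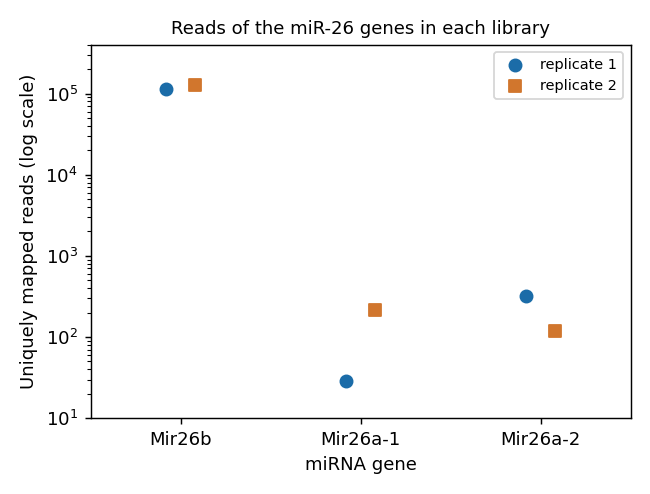
Uniquely mapped reads (y axis, log scale) of the 3 miR-26 genes (x axis), with replicate 1 as blue circles and replicate 2 as orange squares. Mir26b has 114404 and 128916 reads, and the Mir26a genes have between 29 and 320, in opposite order in the 2 libraries.

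The seed of the 3p arm recurs in 2 further genes besides Mir26a-2, and both were close to absent among uniquely mapped reads. Mir6932 had 3 reads in replicate 1 and 2 in replicate 2, and Mir7039 had 2 and 0. Neither reached the minimum for testing.

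Set among miRNAs with the same kind of location, Mir26b was near the top. Of the 2202 genes, 710 lie in an intron of a protein-coding gene on the same strand and overlap no exon, and 124 of these were tested. By mean CPM Mir26b ranked 4 among the 124, behind Mirlet7g (78935 ± 4948 CPM), Mir23b (38496 ± 7997 CPM) and Mir10b (28549 ± 10090 CPM; SD, n = 2 for each). The hairpins of the first pair share runs with others. Among the 94 tested intronic genes with no shared run Mir26b ranked 2, after Mir10b. The median of the 124 was 101 CPM. Replicate 2 was higher for 48 of them and replicate 1 for 36, with a median log2 ratio of 0.09, beside 134 and 123 of all 377 genes and their median of 0.04. The 94 with no shared run split 32 and 29, with a median of 0.05. The 30 with a shared run split 16 and 7, with a median of 0.27. Under total reads the split of the 124 turned to 40 and 45, with medians of -0.04 for them and -0.09 for all 377. Intronic genes were 9 of the 25 most abundant, and all 9 were called higher in replicate 2, as were 23 of the 25. With Mir126a left out of the total these counts were 7 of 9 and 18 of 24. Transcripts of Ctdsp1 and the other host genes were not measured in this assay.

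Near Mir26b on chromosome 1 the nearest annotated miRNA genes had no uniquely mapped reads. The nearest on either side, Mir1928 at 187.7 kb and Gm25035 at 192.5 kb, had 0 reads in both libraries. Both hairpins share runs with others, so 0 sets no limit to their level. The nearest tested gene on the distal side was Mir375, a miRNA of neuroendocrine and islet cells, at 506 kb and on the minus strand. It was more abundant than Mir26b in both libraries, with 36380 and 41025 CPM, and the ratio of Mir26b to it was 0.634 and 0.697. On the other side the nearest tested gene was Mir30c-2, at 51102 kb, with 99.8 and 92.5 CPM, a shared run and no call.

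To show what the 5p seed would pair with, 3′ UTRs of GENCODE M21 transcripts (the longest per gene) were searched for TACTTGA, the complement of the seed, on the transcript's strand alone. Of 15 genes listed as hosts or as genes studied with this family, 11 held at least 1 match. Over all 21659 protein-coding genes with a 3′ UTR the share was 9.39%, and over the 2220 with at least the median length of the listed ones (3352 bases) it was 31.9%. The list was drawn up from earlier knowledge of targets and the match is no evidence of regulation here. Of the hosts, Ctdsp2 had 1 match, and Ctdsp1 and Ctdspl had 0. The matches of this host and of the chromatin regulator Ezh2, capitals marking the match, read as follows. They start at base 1083 of the 3′ UTR of Ctdsp2 and at base 251 of that of Ezh2.
Ctdsp2: gtgttgctctTACTTGAtttgccaaat
Ezh2: gaataaagaaTACTTGAacttgttgtt

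In Ezh2 the match is followed by an A, the base that often extends a seed site, and in Ctdsp2 by a T. Messenger RNA was not part of the series, so no level of these genes is given.

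Markers of several tissues differed between the libraries alongside Mir26b. The summed CPM in replicates 1 and 2 was 171355 and 75063 for the endothelial list (4 of 4 genes tested), 4709 and 1165 for the epithelial list (7 of 7), 1059 and 287 for the erythroid list (3 of 3) and 419 and 180 for the kidney list (4 of 5). It was 1254 and 8688 for striated muscle (3 of 10), 30183 and 37498 for mesenchymal and smooth muscle (4 of 5), 40471 and 45933 for the neuroendocrine list (3 of 3) and 1256 and 1554 for the leukocyte list (4 of 4). No listed gene was at 0 in both libraries. The sums of these last 4 lists were higher in replicate 2 in CPM, as Mir26b was, and those of the first 4 were lower. The CPM total is weighted by Mir126a, and these sums were not rescaled without it, so small differences between them may depend on the scaling. In the endothelial and mesenchymal lists 1 gene carried the sum, and the summed CPM of the rest went the other way. Without Mir126a the endothelial list had 14523 and 20353 CPM, most of it from Mir139 (14194 and 19981 CPM). Of the list's 4 tested genes, 2 were called higher in replicate 1 and 2 in replicate 2. Without Mir143 the mesenchymal list had 4336 and 2366 CPM, with its 4 tested genes split in the same way. Mir206 held most of the striated muscle sum (1239 and 8627 CPM) and Mir375 most of the neuroendocrine sum (36380 and 41025 CPM). The rest of the striated muscle and neuroendocrine lists was also higher in replicate 2. For striated muscle that rest was only 15.1 and 61.5 CPM. The hairpins of Mir1a-1, Mir133a-2 and Mir133b in that list share runs with others and so may be undercounted. Against their sums, 1 epithelial and 1 erythroid gene were called higher in replicate 2, and 1 leukocyte gene higher in replicate 1. The part of tissue make-up in the difference of Mir26b was not tested. In gland tissue more cells of a type and more RNA per cell cannot be told apart.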

How the data were processed

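The authors deposited raw read counts per miRNA gene, 1 table per library, with the assembly (mm10) and annotation (GENCODE M21) per the file headers of the accompanying descriptions. Aligner and counter: not given in the sources used here, which name only the assembly and annotation. Each table has 3 unnamed count columns, read from their values as either, annotated and opposite strand. The annotated strand was used, and the 4 leading rows that name no gene were kept out. Assigned to miRNA genes were 42.4% of 11704395 reads in replicate 1 and 39.9% of 11288855 in replicate 2, and 25.9% and 27.8% mapped to several places. The libraries are not copies of each other (chi-square 566135 on 376 degrees of freedom).

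CPM used the total of miRNA reads, and TMM factors over all genes (edgeR 4.0.16) were 1.05 and 0.956. TMM was first computed over the tested genes alone (log2 ratio of Mir26b 0.36). It was changed to all genes after that value was seen, and the first version is kept as an alternative. Genes with at least 10 reads in both libraries were compared by an exact binomial test of their split, adjusted by Benjamini-Hochberg over 377 genes, with calls at 0.05. It compares 2 libraries and takes counting error as the only error. The test was tried on simulated counts with counting error alone and known library sizes. That trial cannot show how the test behaves under the wider spread of these libraries. Its pass mark was changed to leave out genes with few reads after the first was not met. Alternatives were total reads, DESeq2 1.42.0 size factors, edgeR's exact test, other filters and strand columns. Genes named were the family, the 3 genes above and 3 below in level, the 3 most alike, the nearest on the chromosome and those sharing a seed. Hairpins sharing 18 bases with another elsewhere on either strand (1135 genes) were marked as uncertain. The gene and all lists were chosen with earlier results of these data known. In the search of 3′ UTRs, 1 listed gene is not reported here.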

Additional observations from a re-analysis of the deposited data

How the results depend on the processing

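Mir26b was higher in replicate 2 in all 9 alternatives for its log2 ratio, which ranged from 0.15 to 0.44. The other read filters and edgeR's exact test kept the TMM scaling over all genes. Their log2 ratio of 0.44 was therefore fixed in advance, and only the other alternatives could move it. The call was lost in 1, edgeR's exact test, whose log2 ratio was 0.44 with an adjusted p of 1 (exact test at the dispersion of the pair). That test called 7 genes, against 257 by the binomial test. The number of genes called stayed within 1.5-fold in the other 8 alternatives, but the share called did not, since the filters change the number tested. The main setting called 257 of 377 genes, no filter on low counts 264 of 831, and at least 100 reads in both libraries 218 of 266. In 2 of the 9, TMM over the tested genes alone (log2 ratio 0.36, 253 genes called) and totals without Mir126a (0.15, 265 genes called), the choice was made after seeing the data. The level of 25835 CPM was 30586 CPM with reads of either strand and 38324 CPM without hairpins that share runs. Over all reads of the library it was 10597 CPM. Each of these choices changes the total by construction. With reads of either strand the count of Mir26b itself was the same. In that column 1018277 reads of replicate 1 and 497237 of replicate 2 were ambiguous and counted for no gene. The rank of 11 was 7 without hairpins that share runs. Leaving out 1 replicate gave 23063 to 28607 CPM, a rank of 9 to 11 and a family share of 99.70% to 99.74%. For the 2 Mir26a genes direction held in all alternatives that tested them, though none shifted the ratios enough to be able to reverse it. Their calls were lost only with edgeR's exact test. The split of calls towards replicate 2 was 52.1% with TMM and 29.1% without Mir126a in the total. No paired analysis was possible because the series has 1 group. With 2 libraries no setting gives a test against the spread between animals.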
